A study of Mus musculus with 5 samples.

Results

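The comparison described here is the array of mouse ventromedial hypothalamus (VMH) taken 6 h after 1 electroconvulsive shock (ECS) against the array taken 2 h after 1 shock. These are 2 of the 5 arrays of the series, picked by their labelled number of shocks and time, and each side is 1 array. The difference uses no sham array: it asks which transcripts had come down, and which had come up, between 2 h and 6 h after a first seizure. With 1 array a side there is no test, so each difference is a difference between 2 arrays, given with no standard deviation, standard error or p-value, and every value is only as precise as a comparison of so few arrays allows.

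All animals were C57Bl/6 mice, all were anaesthetised with isoflurane, and the shock was given through clips on the ears. The groups were 1 shock with collection at 6 h, 1 shock with collection at 2 h, 7 shocks with collection at 6 h or at 2 h, and a sham treatment with anaesthesia but no current, collected at 2 h. There was no sham array at 6 h, so time after the shock and time of day cannot be told apart. Each array carried amplified RNA of laser-microdissected tissue pooled from 2 or 3 animals, so the spread between animals is not seen. The sample titles name the VMH while another label field names the paraventricular nucleus (PVN). The VMH marker Nr5a1, the transcription factor SF-1 that defines the nucleus, had a scaled signal of 158 at 6 h and 67.3 at 2 h, against 94.8 in the sham array. The PVN marker Sim1, the factor that specifies that nucleus, was dim in both arrays, with deposited signals of 4.4 at 6 h and 1.1 at 2 h, against 10.1 in the sham array. Avp, the vasopressin gene of the PVN and supraoptic nucleus, had 53.5 at 6 h, above that array's median, and 5.1 at 2 h, against 7.1 in the sham array. By their mean over the 5 arrays both lay under the low-signal limit used below, so neither was counted. No marker of either nucleus was at exactly 0 in these 2 arrays.

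A seizure drives neurons to fire together, and calcium entry and kinase signalling then switch on immediate early genes (IEGs) within minutes, without new protein synthesis. Their mRNAs are short-lived: they peak early and decay within hours, while the effector genes that they and CREB control, among them synaptic regulators, feedback phosphatases and growth factors, follow with slower kinetics. A seizure also releases corticosterone, which reaches the brain and acts through the glucocorticoid receptor on a further set of genes. The VMH is a glutamatergic nucleus that takes part in feeding, glucose control and defensive behaviour.

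Values below are scaled signals, that is MAS5 signals plus a constant of 1.2, after each array was brought to the same median. The constant stays in the printed values, so very dim signals print higher than rescaling alone would give. Differences are log2 of the 6 h array minus log2 of the 2 h array. A gene was called lower or higher at 6 h when this difference was 2-fold or more, and a gene is called near sham when it lay within 2-fold of the sham array. Of 6650 genes measured, 505 were lower at 6 h, which is 7.59%, and 493 were higher, which is 7.41%. The median of all genes was 0.06. At 4-fold, 67 genes were lower and 44 higher.

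The array medians as deposited were 26.9 at 6 h and 20.3 at 2 h, with 23.4 for the sham array and 30.9 and 31.6 for the 7-shock arrays at 6 h and 2 h. The kept probe sets of the 6 h array were brighter than those of the 2 h array by 0.53 on the log2 scale before rescaling. Without rescaling 1575 genes were higher and 175 lower at 6 h, so 90% of the calls were higher instead of 49.4%. The Gapdh 3′ to 5′ ratio, a measure of transcript length in the amplified RNA, was 5.37 at 6 h and 8.77 at 2 h, against 6.67 in the sham array. The actin ratio ran the other way, with 1.10 at 6 h and 0.889 at 2 h, against 0.799 in the sham array. The part of array brightness and transcript length in the differences was not tested.

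The immediate early genes were the group that lay lowest at 6 h relative to 2 h. Of 26 such genes on the array 12 were measured above the low-signal limit, and 8 of the 12 were lower at 6 h and none higher, where 7.59% of all genes were lower. Their median difference was -1.54, against 0.06 over all genes. Of these 8, Fos, Jun, Egr1, Egr2, Srf and Maff stood 2-fold or more above the sham array at 2 h and within 2-fold of it at 6 h. In bulk tissue such as this, fewer cells of a type and less RNA per cell cannot be told apart.

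Fos, which forms the AP-1 transcription factor with Jun proteins and is the standard marker of neurons that have fired, had a scaled signal of 23.3 at 6 h and 185 at 2 h, against 12.6 in the sham array, a difference of -2.99. Jun, its partner, had 82.7 at 6 h and 432 at 2 h, against 77.0 in the sham array, and its probe sets gave -2.38 and -1.98. Both stood 5-fold or more lower at 6 h, and Jun was back at the sham signal while Fos was still above it by less than 2-fold. Egr1, the zinc finger factor also called Zif268, had 327 at 6 h and 1507 at 2 h, against 261 in the sham array, a difference of -2.21. Egr2, its relative, had 44.2 at 6 h and 172 at 2 h, against 31.2 in the sham array, a difference of -1.96. Serum response factor (Srf), the factor that itself binds the promoters of many IEGs, had 107 at 6 h and 449 at 2 h, against 211 in the sham array, a difference of -2.07. Egr1, Srf and Jun were thus each more than 4-fold lower at 6 h.

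The remaining measured IEGs did not all follow that course. Klf10, a TGF-beta-inducible Krüppel-like repressor, had 81.4 at 6 h and 199.9 at 2 h, against 36.5 in the sham array, so it was lower by 1.30 on the log2 scale and still above sham at 6 h. Ier5, a small immediate early response protein, had 90.7 at 6 h and 313 at 2 h, against 210.4 in the sham array: it was near sham at 2 h and below it at 6 h. Maff, a small Maf transcription factor, had 25.4 at 6 h and 53.6 at 2 h, against 20.0 in the sham array, a difference of -1.08. The other 4 measured IEGs were not called: Jund (0.30), the Jun family member with high resting expression, Crem (0.42), the CREB-related repressor, Klf6 (0.57), a Krüppel-like factor, and Myc (0.91), the growth regulator. Klf6 had 355 at 6 h and 239 at 2 h, against 128 in the sham array, so it was 2-fold or more above sham at 6 h and not at 2 h.

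The other 14 IEGs had signals too low to enter the measured set, and 13 of them had a lower scaled signal at 6 h, as did 63.9% of the 5743 genes left out for low signal. The values given next for such genes are deposited MAS5 signals, and none was counted as a call. FosB, a Fos family subunit, had 10.3 at 6 h and 91.2 at 2 h, against 0.3 in the sham array. The orphan nuclear receptors of the NR4A family were dim: Nr4a1 had 6.9 at 6 h and 35.0 at 2 h, against 16.2 in the sham array, and Nr4a3 had 1.5 at 6 h and 51.5 at 2 h, against 17.0 in the sham array. The stress factor Atf3 had 4.5 at 6 h and 22.1 at 2 h, against 10.2 in the sham array. JunB, another AP-1 subunit, went the other way, with 16.7 at 6 h and 8.0 at 2 h, against 8.2 in the sham array. Klf2, a Krüppel-like factor, with 16.6 at 6 h and 12.1 at 2 h, and Ier2, with 8.3 at 6 h and 7.5 at 2 h, were also higher at 6 h as deposited, and lower after scaling.

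The plot of called response genes by array shows the signals of the IEGs and of the effector, feedback and glucocorticoid groups described next.

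**Figure D1:**
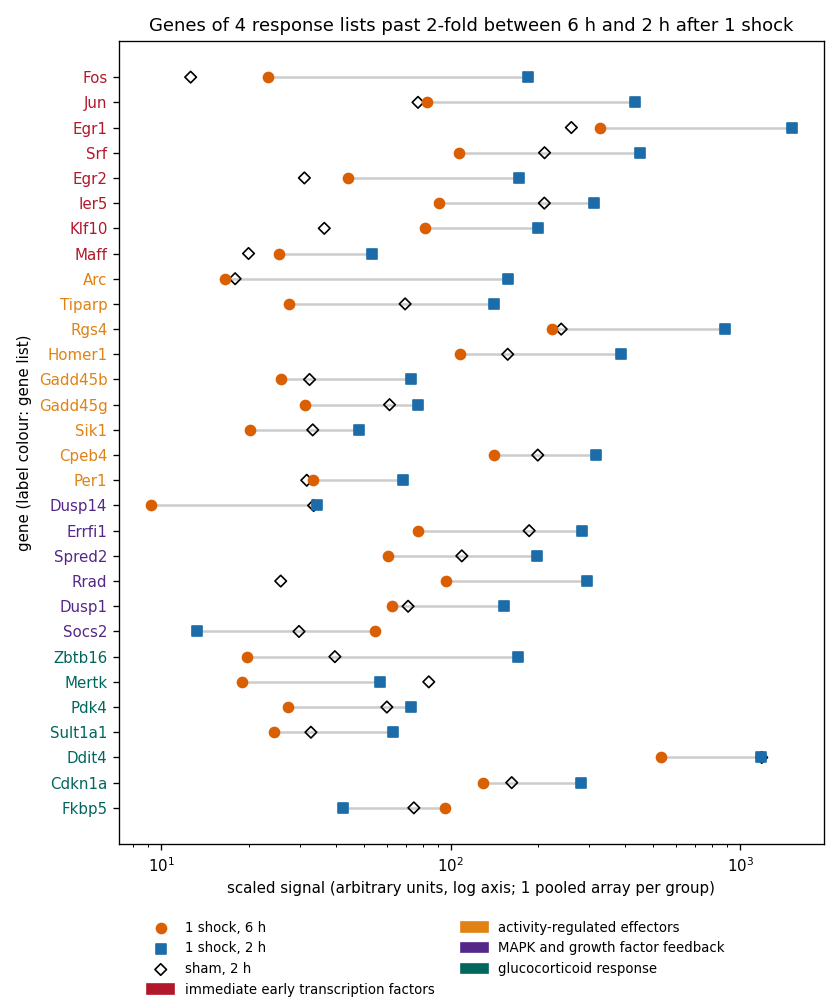
Scaled MAS5 signal (log axis) of the genes of 4 response lists past 2-fold between the 6 h and the 2 h array after 1 shock, 1 row a gene and 1 point an array (circle 6 h, square 2 h, open diamond sham at 2 h), with the gene names coloured by list. Fos is at 23.3 at 6 h and 185 at 2 h, Arc is at 16.5 at 6 h and 158 at 2 h, and Socs2 and Fkbp5 are the genes whose 6 h point lies to the right of the 2 h point.

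Promoter windows of some of the IEGs and feedback genes that were lower at 6 h are shown. They were picked because they carry elements through which CREB and serum response factor are known to act. Sequences are RefSeq promoter windows of build GRCm38.p6, printed 5′ to 3′ on the gene's strand, with the matched letters in capitals. The first 3 hold the full cyclic AMP response element (CRE), TGACGTCA, the Fos window holds its TGACG core, and the last 2 hold a CArG box, the site of serum response factor.
Dusp1 (chr17:26508588-26508635, minus strand): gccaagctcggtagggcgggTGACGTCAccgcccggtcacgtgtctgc
Errfi1 (chr4:150854999-150855046, plus strand): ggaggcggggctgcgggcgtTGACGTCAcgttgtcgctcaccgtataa
Maff (chr15:79347471-79347518, plus strand): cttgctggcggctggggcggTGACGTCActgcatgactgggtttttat
Fos (chr12:85473804-85473848, plus strand): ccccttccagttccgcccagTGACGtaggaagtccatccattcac
Egr2 (chr10:67537777-67537826, plus strand): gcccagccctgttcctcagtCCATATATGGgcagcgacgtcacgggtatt
Srf (chr17:46556215-46556264, minus strand): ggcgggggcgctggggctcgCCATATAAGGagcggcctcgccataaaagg
The full CRE was searched on both strands in the 250 bases before each start site. Of the 28 called-lower IEGs, effectors, MAP kinase feedback genes and glucocorticoid-responsive genes 22 have a promoter in the table. The full CRE was present in 3 of these 22, in 3.96% of the promoters of all 404 lower genes with an entry, in 1.49% of those of the 404 higher genes with an entry, in 3.23% of those of all 5445 measured genes with an entry, and in 1.55% of all 32851 promoters. The CArG box was present in 2 of the same 22 and in 1.52% of the measured genes. The TGACG core, which lies within every full CRE, was present in 10 of the 22 and in 33.1% of the measured genes. The AP-1 site TGANTCA was in 0 of the 22 and in 4.98% of the measured genes. A match is a run of letters and not a measured binding site.

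Activity-regulated effector genes followed in part. Of 28 on the array 22 were measured, 9 were lower and none higher, where 7.59% of all genes were lower, and the median difference was -0.89. Of the 9, 5 (Arc, Homer1, Rgs4, Gadd45b and Per1) were above sham at 2 h and near sham at 6 h, Gadd45g, Sik1 and Cpeb4 were near sham at both times, and Tiparp was above sham at 2 h and below it at 6 h.

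Arc, whose mRNA travels to dendrites and whose protein removes AMPA receptors from synapses, had 16.5 at 6 h and 158 at 2 h, against 18.0 in the sham array, a difference of -3.25. Its 6 h signal was at the sham level and close to the dim end of the measured range. Homer1, a postsynaptic scaffold whose short activity-induced form loosens receptor clusters, had 107 at 6 h and 387 at 2 h, against 157 in the sham array. Its 3 probe sets ran between -5.77 and -0.42, with -1.85 for the brightest, so its probe sets shared the direction and differed widely in size. Rgs4, which shortens G protein signals, had 224 at 6 h and 888 at 2 h, against 241 in the sham array, and its 3 probe sets lay between -2.02 and -1.93. Rgs4 was therefore bright, lower at 6 h in each of its probe sets and back at the sham signal.

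Tiparp, an ADP-ribosyltransferase that represses the aryl hydrocarbon receptor, had 27.6 at 6 h and 142 at 2 h, against 69.5 in the sham array, with probe sets between -3.27 and -1.72. Gadd45b and Gadd45g, stress-response proteins linked to DNA demethylation, differed by -1.49 and -1.30. Gadd45b had 25.9 at 6 h and 73.0 at 2 h, against 32.5 in the sham array. Sik1, the salt-inducible kinase that turns off CREB coactivators, had 20.2 at 6 h and 48.3 at 2 h, against 33.3 in the sham array, a difference of -1.25. Gadd45b was above sham at 2 h by 2-fold or more, and Sik1 was not. Per1, a clock gene that CREB also induces, had 33.3 at 6 h and 68.5 at 2 h, against 31.8 in the sham array, a difference of -1.04. Cpeb4, a regulator of poly(A) tails, gave -1.17 with its brighter probe set and -0.03 with the other.

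The remaining 13 effectors did not reach 2-fold. Bdnf, the neurotrophin most closely tied to seizures, had 71.8 at 6 h and 134 at 2 h, against 42.2 in the sham array, a difference of -0.90. Nab1, a corepressor of EGR factors, gave -0.93 and Plk2, a kinase of active synapses, gave -0.54. The neuronal pentraxin Nptx2, which gathers AMPA receptors, had 562 at 6 h and 517 at 2 h, against 161 in the sham array: it was 2-fold or more above sham at both times and differed between them by 0.12. Rgs2, a relative of Rgs4, had 1193 at 6 h and 1196 at 2 h, against 1101 in the sham array. The effectors thus ranged between -3.25 for Arc and 0.57 for Pim1, a survival kinase, on the log2 scale.

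Feedback regulators of MAP kinase and receptor tyrosine kinase signalling showed 5 lower genes and 1 higher among 13 measured of 19 on the array, beside 7.59% and 7.41% of all genes, with a median of -0.81. Dusp1, the phosphatase that dephosphorylates p38, JNK and ERK kinases, had 62.8 at 6 h and 153 at 2 h, against 71.2 in the sham array, a difference of -1.28. Errfi1, an inhibitor of the EGF receptor, had 77.1 at 6 h and 284 at 2 h, against 186 in the sham array, a difference of -1.88. Spred2, an inhibitor of the Ras to Raf step, differed by -1.71. Of the 5 lower genes only Dusp1 was above sham at 2 h and near it at 6 h, whereas Errfi1 and the phosphatase Dusp14 (-1.91, 9.21 at 6 h and 34.6 at 2 h, against 33.6 in the sham array) were near sham at 2 h and below it at 6 h. Rrad, a small GTPase that inhibits calcium channels, had 96.4 at 6 h and 296 at 2 h, against 25.8 in the sham array, so it was above sham at both times. Socs2, a suppressor of growth hormone signalling, was the higher gene, with 54.7 at 6 h and 13.3 at 2 h, against 29.9 in the sham array: its 2 h signal was the low one, and its other probe set gave 0.25. Dusp6, the ERK phosphatase, differed by -0.81 and was near sham at both times.

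Glucocorticoid-responsive genes were lower in 10 of 20 measured and higher in 1, with a median of -0.81, where 7.59% and 7.41% of all genes were lower and higher. Zbtb16, a zinc finger repressor strongly induced by glucocorticoids, had 19.8 at 6 h and 171 at 2 h, against 39.7 in the sham array, a difference of -3.11. It stood above sham at 2 h and below it at 6 h. Ddit4, an inhibitor of mTORC1 signalling, had 530.3 at 6 h and 1178 at 2 h, against 1187 in the sham array, a difference of -1.15. Cdkn1a, the cell cycle inhibitor p21, had 129 at 6 h and 281 at 2 h, against 162 in the sham array, a difference of -1.12. Ddit4, Pdk4 (-1.42), the kinase that holds back pyruvate oxidation, and Mertk (-1.58), a phagocytic receptor kinase, were near sham at 2 h and below it at 6 h. Fkbp5, the chaperone that damps the glucocorticoid receptor, was the higher gene, with 95.4 at 6 h and 42.3 at 2 h, against 74.5 in the sham array, a difference of 1.17. Other members that are textbook targets did not reach 2-fold: Sgk1 (-0.58), an ion transport kinase, had 231 at 6 h and 345 at 2 h, against 104 in the sham array, Tsc22d3 (-0.42), also called GILZ, lay near sham at both times, and the metallothionein Mt1 gave 0.21. The receptor itself, Nr3c1, gave 0.66. Of the 10 lower genes, Dusp1 and Per1 were above sham at 2 h and near it at 6 h. Dusp1, Errfi1, Per1 and Gadd45g also belong to the effector or feedback lists, so the counts of these lists overlap.

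The plot of differences by gene list sets these 4 groups beside the others.

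**Figure D2:**
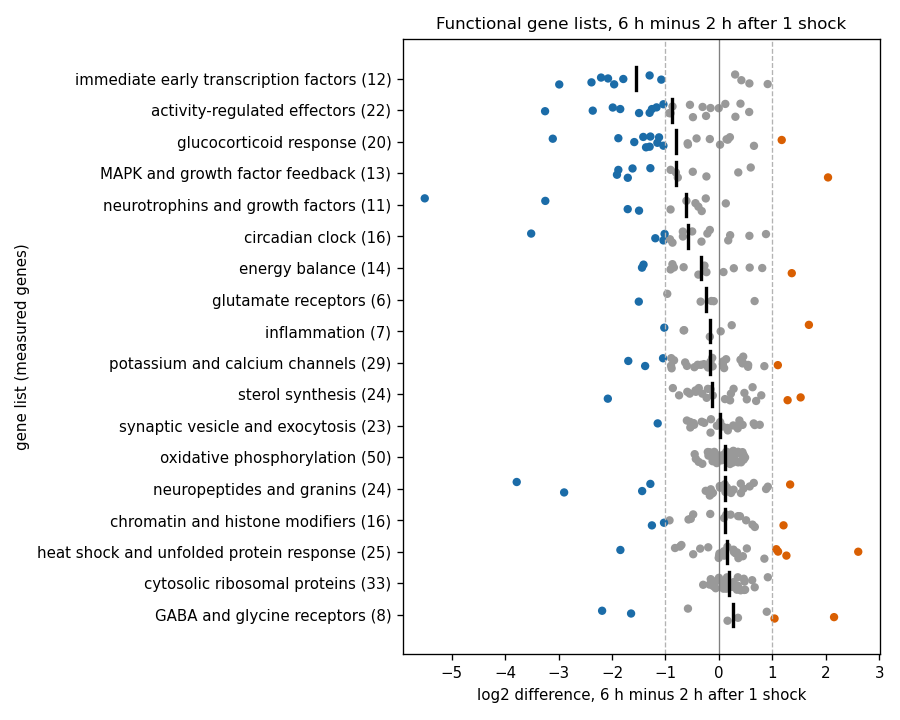
Difference in log2 signal between the 6 h and the 2 h array after 1 shock for each measured gene of each list, 1 point a gene, with the list median as a tick where 3 or more genes were measured and 2-fold lines at -1 and 1. The immediate early genes have a median of -1.54 and the effectors -0.89, while the ribosomal proteins (0.18) and the oxidative phosphorylation subunits (0.11) lie between the 2-fold lines.

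Genes of energy supply and protein synthesis differed little between the arrays. None of 50 measured subunits of oxidative phosphorylation reached 2-fold, with a median of 0.11 and a range of -0.45 to 0.49, and none of 33 ribosomal protein genes did, with a median of 0.18. Of 23 synaptic vesicle genes 1 was lower, the active zone scaffold Pclo (-1.15), and the median was 0.02. These lists hold bright genes, and few bright genes of any kind were called, as described further on.

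Among heat shock and unfolded protein response genes 4 of 25 measured were higher and 1 lower, beside 7.41% and 7.59% of all genes, with a median of 0.16. The cytosolic chaperone Hspa1a had 106 at 6 h and 49.4 at 2 h, against 23.8 in the sham array, a difference of 1.11. Its relative Hspa1l had 141 at 6 h and 23.1 at 2 h, against 9.88 in the sham array, a difference of 2.61. Both were above sham at both times and further above it at 6 h, while Hspa1b, a near-identical copy of Hspa1a, gave 0.01, and hybridisation between the copies cannot be told apart here. In the endoplasmic reticulum, the disulphide isomerase Pdia6 had 116 at 6 h and 48.4 at 2 h, against 52.7 in the sham array, a difference of 1.26. Sdf2l1, a partner of the main chaperone there, had 123 at 6 h and 58.3 at 2 h, against 51.6 in the sham array, a difference of 1.07. The main chaperone, Hspa5 (BiP), gave 0.52 and Creld2 0.85, both short of 2-fold. The lower gene was Dnajb5, a DnaJ cochaperone, with 171 at 6 h and 615 at 2 h, against 199.9 in the sham array, and 3 probe sets between -1.84 and -0.93. Dnajb5 was among the brightest genes called and followed the same course as the IEGs, above sham at 2 h and near it at 6 h. Dnajb1, a DnaJ partner of Hsp70, had 2153 at 6 h and 3804 at 2 h, against 1915 in the sham array, a difference of -0.82.

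Clock genes were lower in 4 of 16 measured and higher in none, beside 7.59% of all genes lower, with a median of -0.59. Hlf, a clock output factor of the PAR bZip family, had 9.39 at 6 h and 107 at 2 h, against 83.2 in the sham array, and its probe sets gave -3.51 and -1.18. Rora, an activator of Bmal1, gave -1.19, Per1 -1.04 and Bhlhe40, the activity-induced clock repressor Dec1, -1.02. Bhlhe40 had 89.9 at 6 h and 182 at 2 h, against 122 in the sham array. Only Per1 of the 4 was above sham at 2 h.

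Growth factors and their regulators were lower in 4 of 11 measured and higher in none, beside 7.59% of all genes lower, with a median of -0.61. Igfbp4, an insulin-like growth factor binding protein, had a scaled signal of 4.34 at 6 h and 197 at 2 h, against 164 in the sham array, a difference of -5.50. Its deposited 6 h signal of 3.6 was among the dimmest values, and the difference ran between -5.91 and -3.24 over the alternative settings. All 4 of its probe sets were lower, between -5.50 and -1.67. Igfbp5, a binding protein of the same family, had 14.0 at 6 h and 133 at 2 h, against 165 in the sham array: its brightest probe set gave -3.25 and the other -0.20. Fgfr1, a fibroblast growth factor receptor, gave -1.71 and 0.13 with its probe sets, and Ntrk3, the receptor of neurotrophin 3, gave values between -1.49 and 0.13. Igfbp4, Igfbp5 and Fgfr1 were near sham at 2 h and below it at 6 h, a course unlike that of Fos or Arc.

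Markers of neighbouring tissue differed between the arrays and are given beside these values. Of 13 markers of cortical and amygdalar excitatory neurons on the array 8 were measured. At 6 h 3 of the 8 were lower and none higher, beside 7.59% and 7.41% of all genes. Their median was -0.88, and 2 of the 8 lay above 0, up to 0.60. The signal summed over all 13, dim ones included, was 1125 at 6 h and 1829 at 2 h. It was 2652 and 2804 in the 7-shock arrays at 6 h and 2 h, and 2170 in the sham array. Tbr1, a transcription factor of cortical glutamatergic neurons, had 1.90 at 6 h and 63.9 at 2 h, against 66.4 in the sham array. Its difference of -5.07 rests on a deposited 6 h signal of 0.9, below the pseudocount, and ran between -6.26 and -3.45 over the alternative settings. Cck, the peptide cholecystokinin, had 10.5 at 6 h and 78.0 at 2 h, against 74.1 in the sham array, a difference of -2.90, and Mef2c, an activity-regulated factor abundant in cortex, had 59.4 at 6 h and 343 at 2 h, against 621 in the sham array. All 5 probe sets of Mef2c were lower, between -3.85 and -1.23. Conversely the 11 VMH markers on the array, 6 of them measured, summed to 3829 at 6 h and 2792 at 2 h, against 2150 in the sham array. The 6 measured had a median of 0.46. Nr5a1 was higher by 1.23, and Cbln1 (0.63), the synapse organiser, Adcyap1 (0.58), the peptide PACAP, and Slc17a6 (0.35), the vesicular glutamate transporter, did not reach 2-fold. Bdnf, also on the VMH list, went the other way (-0.90). No marker's brightest probe set was at exactly 0 in any array. The 6 h array thus had the lowest cortical sum and the highest VMH sum of the 5. The VMH sum includes Adcyap1 (1341 at 6 h and 900 at 2 h, against 611 in the sham array) and the effector Nptx2. Both genes stood 2-fold or more above sham at 6 h. The part of tissue composition in the lower genes was not tested.

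Broad cell classes differed less. The 15 neuronal markers summed to 22171 at 6 h and 22611 at 2 h, with a median of -0.03, and the 15 astrocyte markers to 10816 at 6 h and 10649 at 2 h, with a median of 0.03. The oligodendrocyte markers had a median of 0.12, those of microglia -0.27 and those of endothelium and pericytes 0.18. Without rescaling each of these medians lay above 0, between 0.26 and 0.71. Among GABAergic markers 2 of 5 measured were lower and none higher, beside 7.59% and 7.41% of all genes. Gad1, the enzyme that makes GABA, had 128 at 6 h and 360.5 at 2 h, against 449 in the sham array. Its probe sets gave -1.49 and -2.22. Pvalb, the calcium buffer parvalbumin, gave -1.65, while Sst (0.46) and Slc32a1 (-0.12) were not called. Thalamic markers had a median of 0.91 over 3 measured, with Tcf7l2 higher (1.38) and Rora lower (-1.19). Of the PVN and supraoptic markers 2 of 6 were measured, Trh (-0.17), thyrotropin-releasing hormone, and Oxt.

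**Figure D3:**
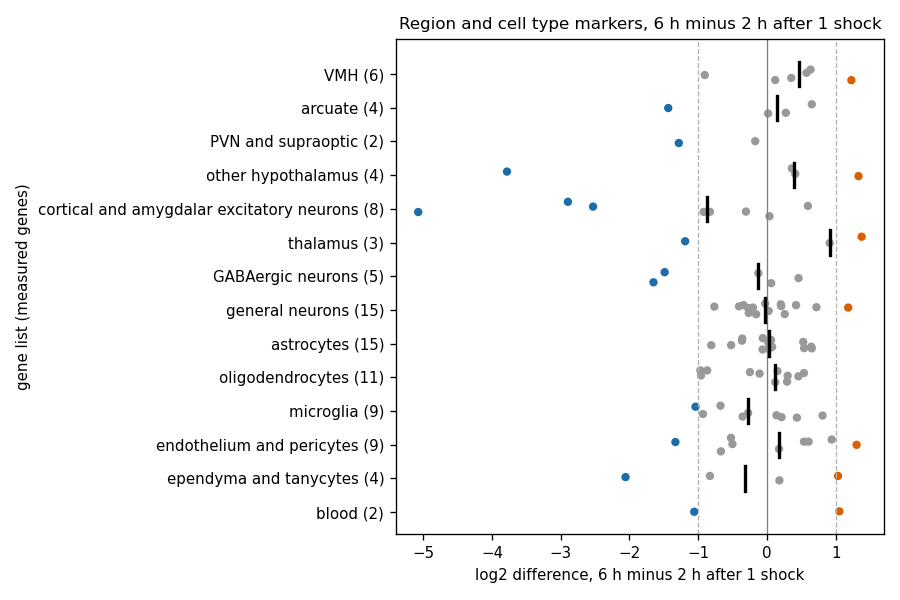
Difference in log2 signal between the 6 h and the 2 h array after 1 shock for each measured marker of a region or cell type, 1 point a gene, with the median as a tick where 3 or more genes were measured and 2-fold lines at -1 and 1. The cortical markers have a median of -0.88 with Tbr1 at -5.07, the VMH markers have a median of 0.46 with Nr5a1 at 1.23, and the astrocyte markers all lie between the 2-fold lines.

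Neuropeptide genes were lower in 4 of 24 measured and higher in 1, beside 7.59% and 7.41% of all genes, with a median of 0.12. Vip, vasoactive intestinal peptide, had 4.07 at 6 h and 55.9 at 2 h, against 51.3 in the sham array, a difference of -3.78. Npy, neuropeptide Y, had 29.5 at 6 h and 79.9 at 2 h, against 85.8 in the sham array, a difference of -1.44. Oxt, oxytocin, gave -1.28 with 11.5 at 6 h and 27.9 at 2 h, and Hcrt, the orexin precursor of the lateral hypothalamus, gave 1.33. Vip, Npy and Cck are made by cortical interneurons as well as by hypothalamic cells, and each was near sham at 2 h and below it at 6 h. The peptide gene Sst, given above with the GABAergic markers, was not lower. It had 499 at 6 h and 363 at 2 h, against 412 in the sham array. The cell source of these differences was not tested. The opioid precursor Penk gave -0.25, so not all activity-linked peptides were lower.

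Among energy balance genes, 2 of 14 measured were lower and 1 was higher, beside 7.59% and 7.41% of all genes, with a median of -0.33, or 0.20 without rescaling. Irs2, the insulin receptor substrate, gave -1.44, and Foxo1, the transcription factor that insulin signalling restrains, had 43.3 at 6 h and 115 at 2 h, against 55.6 in the sham array, a difference of -1.41. Foxo1 was above sham at 2 h and near it at 6 h. Npy1r, the Y1 receptor of neuropeptide Y, had 65.4 at 6 h and 25.4 at 2 h, against 16.9 in the sham array, a difference of 1.36.

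Receptor and channel genes were called in both directions, and the channel counts lay near the 7.59% lower and 7.41% higher of all genes. Of 8 measured GABA and glycine receptor genes 2 were lower, Gabrd (-2.19), the subunit of extrasynaptic receptors, and Gabra3 (-1.64), and 2 were higher, Gabrg3 (2.15) and Gabra2 (1.04). Gabrg3 had 68.5 at 6 h and 15.4 at 2 h, against 44.0 in the sham array, so its 2 h signal was the low one. Of 6 glutamate receptor genes the kainate subunit Grik2 was lower (-1.50). Of 29 potassium and calcium channel genes 3 were lower, Kcnk3 (-1.70), Kcnd3 (-1.38) and Kcnc1 (-1.05), and Kcnk2 was higher (1.10).

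None of the functional lists counted had a median difference past 2-fold on the higher side. Set against the sham array, 142 of the 493 were near sham at 2 h and above it at 6 h, 148 were below sham at 2 h and near it at 6 h, 183 were near sham at both times and 20 followed another course. Of the 505 lower genes 117 were above sham at 2 h and near it at 6 h, 193 were near sham at 2 h and below it at 6 h, 165 were near sham at both times and 30 followed another course. A late rise in the strict sense, near sham first and above it later, thus described 142 of the 493 higher genes, and these counts reuse the same 2 h and 6 h arrays that made the calls.

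The most positive difference was that of Urm1, a ubiquitin-like protein that acts in tRNA thiolation, with 380.2 at 6 h and 20.7 at 2 h, against 23.1 in the sham array, a difference of 4.20. Ubap2, a ubiquitin-associated protein, had 371 at 6 h and 29.9 at 2 h, against 58.6 in the sham array, a difference of 3.63. Ifrd2 had 133 at 6 h and 12.5 at 2 h, against 22.4 in the sham array, a difference of 3.41. All 3 rest on 1 probe set each and were near sham at 2 h and above it at 6 h. Next came Ftsj3 (3.23), a ribosome maturation factor, and Nepro. Nepro, a nucleolar protein, gave 3.18 with 113 at 6 h and 12.5 at 2 h, and it was near sham at 6 h, so here the 2 h array was low. Gart, of purine synthesis, and Ostf1 followed at 3.11 each. Trip6, a zyxin-family adaptor, had 326 at 6 h and 38.5 at 2 h, against 82.2 in the sham array, a difference of 3.08. The most negative after Igfbp4 were Cabyr (-5.23), Tbr1 and Vip, followed by Pdzrn3 (-3.75) and Erdr1 (-3.68). Igfbp4, Cabyr, Tbr1, Vip and Pdzrn3 were all so dim at 6 h (deposited signals under 6.1, the 25th percentile over the whole table) that neither the size nor the rank of these differences is firm. The same holds for Gart, with a deposited 2 h signal of 5.4 and probe sets down to 0.56. Urm1 (14.7), Ifrd2 (8.4), Ftsj3 (12.9), Nepro (8.4) and Ostf1 (9.1) lay below the 2 h array median of 20.3. Ubap2 (21.7) and Trip6 (28.3) lay above it. Cabyr, a calcium-binding protein best known from sperm, had 5.15 at 6 h and 194 at 2 h, against 45.5 in the sham array.

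Genes with several probe sets give a check within each array. Over 2470 such genes the difference of a second probe set correlated with that of the brightest at 0.232 across genes, which are not independent, and 164 of 260 called genes, or 63.1%, had the same sign. Genes with all their probe sets past 2-fold numbered 32 lower and 13 higher. The lower ones include Jun, Rgs4, Tiparp, Igfbp4, Gad1, Rasgrp1 (-1.84), a Ras activator driven by calcium and diacylglycerol, Arid5b (-1.94), a chromatin regulator, and Cntfr (-1.74), the receptor of ciliary neurotrophic factor. The higher ones include Il13ra1, Cops7a, Cops2 and Spint2. Il13ra1, a receptor chain for interleukin 13, had 246 at 6 h and 36.3 at 2 h, against 32.6 in the sham array, and its probe sets gave 2.76 and 2.80. Cops7a and Cops2, subunits of the COP9 signalosome, gave 1.40 and 1.05, and both were near sham at 2 h and above it at 6 h.

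The share of genes past 2-fold was 26.5% in the dimmest of 4 equal groups of measured genes, 19.5% in the next, and 3.07% in the brightest, whose median signal was 525. In the brightest of the 4 groups 28 genes were higher and 23 lower of 1663. The lower ones hold Egr1, Rgs4, Dnajb5, Mef2c and Gad1 from the groups above, with Kalrn (-2.40), a synaptic guanine nucleotide exchange factor, Lamp5 (-1.89), a protein of GABAergic terminals, and Ifrd1 (-1.70). Kalrn had 219 at 6 h and 1157 at 2 h, against 899.7 in the sham array. The higher ones hold Ptpa (1.90), an activator of protein phosphatase 2A, Iars (1.55), the isoleucyl-tRNA synthetase, and Rad52 (1.54), a DNA repair protein. Ptpa had 776 at 6 h and 207 at 2 h, against 693 in the sham array, so its 2 h signal was the low one. Its other probe set gave 0.28. Iars had 1011 at 6 h and 345 at 2 h, against 263 in the sham array, while its other probe set gave a value below 0 (-0.31).

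**Figure D4:**
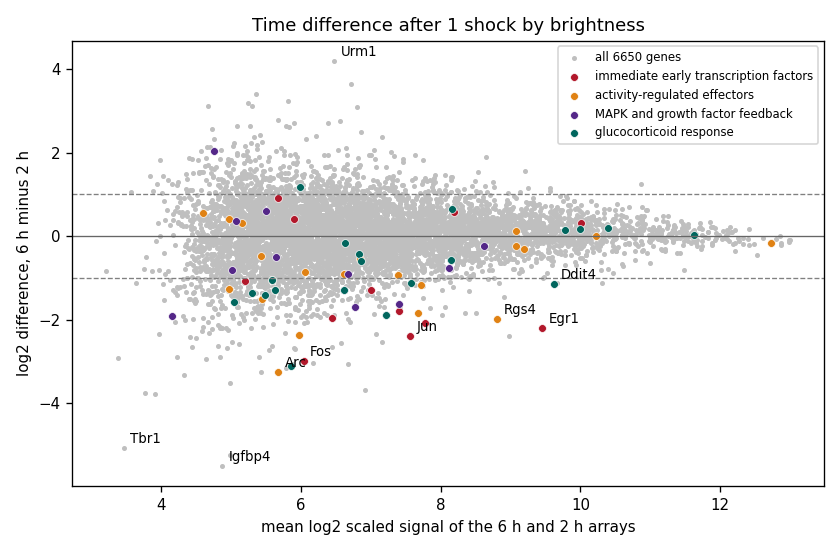
Difference in log2 signal between the 6 h and the 2 h array after 1 shock against mean log2 signal, 1 point a gene, with the genes of the 4 response lists in colour and 2-fold lines at -1 and 1. The spread narrows to the right: 26.5% of genes pass 2-fold in the dimmest of 4 equal groups and 3.07% in the brightest.

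The same time difference after 7 shocks uses a separate pair of arrays and gives the only repeat of the 6 h to 2 h step, under another treatment. There 442 genes, or 6.65%, were lower and 419, or 6.3%, higher. Across the 6650 genes the differences after 1 shock and after 7 shocks correlated at 0.00 (Pearson) and -0.02 (Spearman). Of the genes lower at 6 h after 1 shock, 60 were also lower after 7, which is 11.9% of the 1-shock list and 13.6% of the 7-shock list, and 52 were higher in both, which is 10.5% and 12.4% of those lists. The opposite sign past 2-fold was found in 50 genes lower after 1 shock and higher after 7, and in 45 genes the other way round. The difference between the 2 pairs was not tested.

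For the IEGs the median was -1.54 after 1 shock and -0.62 after 7. Egr1 had 327 at 6 h and 1507 at 2 h after 1 shock, and 308 at 6 h and 1125 at 2 h after 7, differences of -2.21 and -1.87. Fos gave -2.99 after 1 shock and -1.57 after 7, with 25.5 at 6 h and 75.6 at 2 h in the 7-shock pair. Egr1 and Fos were the IEGs lower in both pairs, and Tiparp (-2.36 and -1.01), Per1 (-1.04 and -1.07), Foxo1 (-1.41 and -1.43) and the histone acetyltransferase Kat2a (-1.03, and just past 2-fold after 7) were lower in both among the other lists. Sertad1, a cell cycle and transcription cofactor chosen by the rule for named genes, gave -2.07 and -2.28, with 109 at 6 h and 457 at 2 h after 1 shock. On the higher side, Tle4, a Groucho-family corepressor, had 407 at 6 h and 115 at 2 h after 1 shock, and 482 at 6 h and 148 at 2 h after 7, against 259.6 in the sham array.

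Several other response genes lower after 1 shock did not reach 2-fold in the 7-shock pair. Jun was -2.38 after 1 shock and -0.74 after 7, and Srf -2.07 and -0.40. Arc had 71.4 at 6 h and 54.3 at 2 h after 7 shocks, a difference of 0.39 beside -3.25 after 1 shock: its 6 h signal after 7 shocks was above the sham signal of 18.0, and that after 1 shock was not. Rgs4 gave -1.99 after 1 shock and -0.12 after 7, and Zbtb16 -3.11 and -0.01. The effectors as a list had a median of -0.89 after 1 shock and 0.14 after 7, the MAP kinase feedback genes -0.81 and 0.06, and the glucocorticoid-responsive genes -0.81 and -0.01. Bdnf was not called after 1 shock (-0.90) and was higher at 6 h after 7 (1.24), with 204 at 6 h and 86.1 at 2 h.

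**Figure D5:**
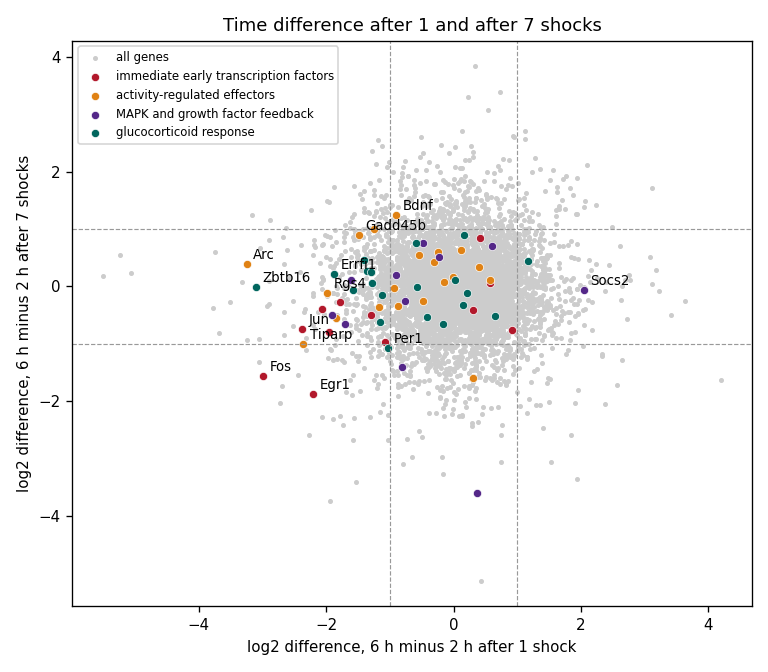
Difference in log2 signal between the 6 h and the 2 h array after 1 shock (x axis) and after 7 shocks (y axis), 1 point a gene, with 2-fold lines at -1 and 1 and the genes of the 4 response lists in colour. Fos (-2.99 and -1.57) and Egr1 (-2.21 and -1.87) lie past both lines, while Arc (-3.25 and 0.39) and Zbtb16 (-3.11 and -0.01) lie past the first only.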

How the data were processed

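The authors measured pooled, amplified RNA of laser-captured tissue on Affymetrix arrays and deposited MAS5 signal intensity values, 1 per probe set and array, per the submitters' processing notes. The table holds 22690 probe sets, 64 of them controls, and 87 values of exactly 0. Genes were named from the platform annotation: 20380 probe sets have 1 symbol, 691 several and 1555 none, and 20351 matched RefSeq (GRCm38.p6) by gene ID.

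From the deposited intensities log2(signal + 1.2) was taken, where 1.2 is the 10th percentile. The brightest 50% of probe sets by mean log2 were kept (10402 probe sets, 6650 genes), each array was centred on its median, and each gene was represented by its brightest probe set. A fold difference on this scale understates the change of dim genes. A gene was called at 2-fold. The calculation (Python 3.11.15, numpy 2.4.6, pandas 2.3.3) was checked on simulated data. The genes named are those of a list that reached 2-fold or held its 4 largest differences, the 15 furthest in each direction with probe sets of 1 sign, up to 15 per direction past 2-fold in every probe set, and the 10 per direction largest in both time pairs or furthest apart between them. Other list members, the deposited signals of genes under the low-signal limit, the calls among the brightest genes and the CArG box were chosen after values were seen. Members and lists were chosen with earlier results of these data known. Alternatives were other pseudocounts, filters, scalings and probe set choices. The design names repeated arrays, and those beyond the 5 are not used here.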

Additional observations from a re-analysis of the deposited data

Results flagged for a closer look

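A total of 26 genes named by the rule were past 2-fold between 6 h and 2 h in opposite directions after 1 and after 7 shocks. The rule names up to 10 genes per direction for this very trait, so the count of 26 follows from the choice. Of all 6650 genes, 50 were lower after 1 shock and higher after 7, and 45 the other way round. Beside these, 60 were lower and 52 higher in both pairs. Each side is 1 pair of arrays, so the difference was not tested.

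Lower after 1 shock and higher after 7 were Sik1 (-1.25 and 1.00), the kinase that restrains CREB coactivators, and Npy (-1.44 and 1.51). So were the microglial marker Aif1 (-1.04 and 1.13) and the histone acetyltransferase Kat2b (-1.25 and 1.67). Zyx (-1.88 and 1.74), the focal adhesion protein zyxin, and Xrcc6 (-1.96 and 1.47), the DNA repair protein Ku70, ran the same way. Others in that direction were Bak1 (-1.29 and 2.35), which drives apoptosis, the cyclin Ccnj (-2.24 and 1.33), Ldlrad4 (-1.19 and 2.55), Mocs1 (-2.89 and 1.15), the nucleoside transporter Slc29a3 (-1.98 and 1.48), the synaptotagmin Syt17 (-2.63 and 1.02), the TFIID subunit Taf4 (-3.16 and 1.24) and Tmcc2 (-1.13 and 2.44). Only Npy, Aif1, Kat2b, Zyx and Tmcc2 of these had a deposited 6 h signal after 1 shock above the array median of 26.9. The other probe set of Tmcc2 gave 0.11 after 1 shock.

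Higher after 1 shock and lower after 7 were Cxcl12 (1.94 and -3.37), a chemokine, Sdf2l1 (1.07 and -1.16) and Txndc5 (2.65 and -1.28), both of the endoplasmic reticulum, Tmem97 (1.53 and -3.06), a sterol-regulated membrane protein, and Urm1 (4.20 and -1.63). Others in that direction were Acaa1b (1.84 and -2.59), a peroxisomal thiolase, Dhodh (1.40 and -2.47), of pyrimidine synthesis, Eri2 (1.95 and -1.82), Gtf2ird1 (2.56 and -1.72), the kinase Map4k5 (2.37 and -2.04), the glucose transporter Slc5a2 (1.15 and -1.22) and Wdr36 (1.90 and -2.03). Only Sdf2l1, Eri2 and Slc5a2 of these had a deposited 2 h signal after 1 shock above the array median of 20.3. Gtf2ird1 was the dimmest there at 7.1, and Tmem97 had 3.8 at 6 h after 7 shocks.

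The bacterial dap control transcript, which no comparison used, stood at 15.6 times the array median on the 6 h array after 1 shock, against 5.00 on the 2 h array after 1 shock, 7.41 and 6.84 on the 7-shock arrays at 6 h and 2 h, and 5.56 on the sham array.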

How the results depend on the processing

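The medians of the immediate early, effector, MAP kinase feedback and glucocorticoid lists stayed below 0 under all 10 alternatives. Without rescaling 1575 genes were higher and 175 lower at 6 h, and these medians were -1.01, -0.36, -0.28 and -0.28. With no low-signal filter 1581 were higher and 1925 lower, and with the brightest 25% of probe sets 122 and 138, with medians of -1.84, -0.48, -1.29 and -0.22. The effector median was -0.62 with the mean of probe sets and -0.54 without cross-hybridising ones, and the glucocorticoid median was -1.08 with the mean. Without cross-hybridising probe sets Ganab turned to 1.30 and Ntrk3 to 0.13. Filters and probe set choices change which genes are measured, and the cause of the other shifts was not tested. Over the named genes and alternatives, 1745 values kept direction and side of 2-fold, 94 were no longer past 2-fold (37 of them without rescaling), 30 came past it and 2 reversed. No replicate could be left out. No paired analysis was possible because each group has 1 array. Dim signals limit the calls in both directions. At 6 h 190 of the 505 lower genes lay below the array median, and at 2 h 176 of the 493 higher genes did.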

Other observations

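Outside the groups above, sterol genes were called in both directions, with 1 lower and 2 higher of 24 measured, beside 7.59% and 7.41% of all genes. Ebp, the sterol isomerase, had 16.9 at 6 h and 71.3 at 2 h, against 17.9 in the sham array, a difference of -2.08. Srebf2, the factor that switches on the sterol pathway, had 146 at 6 h and 59.7 at 2 h, against 61.3 in the sham array, a difference of 1.28, and its other probe set gave 0.71. Among 16 measured chromatin genes 2 were lower and 1 higher, beside 7.59% and 7.41% of all genes. The acetyltransferases Kat2b (-1.25) and Kat2a (-1.03) were lower and Crebbp (1.21), the CREB coactivator, was higher. Kat2b was near sham at 6 h and above it at 2 h, while Crebbp was near sham at 6 h and below it at 2 h.

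Vascular and ventricular markers gave isolated calls. Cldn5, the tight junction protein of brain endothelium, had 96.3 at 6 h and 39.0 at 2 h, against 40.7 in the sham array, a difference of 1.30, and Acta2, the actin of smooth muscle, differed by -1.33. Dio2, the tanycyte enzyme that activates thyroid hormone, had 51.1 at 6 h and 213 at 2 h, against 131 in the sham array, a difference of -2.06. Vim, the intermediate filament of tanycytes and astrocytes, gave values between 0.24 and 1.03 with its 3 probe sets. Of 7 measured inflammation genes 1 was lower and 1 higher, beside 7.59% and 7.41% of all genes. The class I antigen H2-D1 was higher (1.68), with probe sets down to 0.18. H2-K1, another, was lower (-1.02), with its other probe set at 0.09.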
